A study of Mus musculus with 8 samples.

Results

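Ribosome biogenesis and RNA polymerase I genes were followed here as a set of 44 genes, chosen by symbol as nucleolar pre-rRNA processing factors, small nucleolar ribonucleoprotein (snoRNP) proteins and RNA polymerase I subunits or cofactors. All 44 were found among the 23361 genes of the expression table, and all 44 had a mean of at least 1 FPKM (fragments scaled to transcript length and to the library total) over the 8 libraries, as did 10467 genes in total. The list itself applies no threshold on a measured value. In Nrp-1+ iTreg, 21 of the 44 genes were lower than in Nrp-1- iTreg, 5 were higher and 18 did not pass the test, where 20.0% of all tested genes were lower and 20.9% higher.

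RNA was sequenced from induced regulatory T cells (iTreg), which were differentiated in culture from naive CD4+ T cells of Foxp3-RFP reporter mice. The label genotype of all samples is WT, and the study's methods describe the mice as young adult male B6 animals. All cells received anti-CD3/CD28 microbeads, IL-2 at 50 U/ml and TGF-β at 2 ng/ml, and the viable CD4+ Foxp3-RFP+ cells were then split by surface neuropilin-1, which gave 4 samples of Nrp-1+ iTreg and 4 of Nrp-1- iTreg. The labels give 3 days of culture in one field and day 5 in another, and the study's methods state IL-2 in another unit and name another library kit than the labels do. The samples are labelled as biological replicates, but neither source says whether they came from separate mice or cultures, so p-values measure the spread between these samples.

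Ribosome production starts in the nucleolus, where RNA polymerase I transcribes the rDNA repeats into a long precursor rRNA. Box C/D snoRNPs guide ribose methylation of that precursor and box H/ACA snoRNPs guide its pseudouridylation, while large sets of assembly factors fold, cleave and load it with ribosomal proteins to give the small and the large subunit. Activated T cells are known to enlarge their nucleoli and raise ribosome production as they grow before division, with MYC and mTOR among the regulators of the pathway.

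The relative depth of the 8 libraries, read from ratios of low FPKM values between libraries, lay between 0.811 and 1.24 of the first library. The member with the fewest fragments in any library had about 190. Intervals for single genes are not given because these fragment numbers are approximate. The share of total FPKM taken by short RNA genes varied widely, between 1.77% and 43.9% per library, within both groups. Nrp1, the gene of the sorted protein, measured 20.4 to 22.0 FPKM in Nrp-1+ iTreg and 4.70 to 5.31 FPKM in Nrp-1- iTreg. Of 5 markers of the labelled cell type, all present in every library, Foxp3, the defining factor of regulatory T cells, averaged 116 ± 3.72 in Nrp-1+ iTreg and 109 ± 1.20 in Nrp-1- iTreg (mean FPKM ± SD) and was higher in Nrp-1+ iTreg without overlap (log2 fold change 0.089 ± 0.026, adjusted p = 0.0245). Il2ra, the IL-2 receptor alpha chain, averaged 266 ± 4.96 in Nrp-1+ iTreg and 228 ± 3.58 in Nrp-1- iTreg and was also higher without overlap (log2 fold change 0.22 ± 0.022, adjusted p = 0.000108). Cd3g averaged 444 ± 12.1 in Nrp-1+ iTreg and 479 ± 20.2 in Nrp-1- iTreg and was lower with overlapping groups (log2 fold change -0.11 ± 0.035, adjusted p = 0.0375). Cd4 (log2 fold change -0.044 ± 0.029, adjusted p = 0.255) and Cd3e (log2 fold change -0.084 ± 0.039, adjusted p = 0.122) were not called. Summed over 5 B cell markers the level was 5.21 to 5.91 FPKM in Nrp-1+ iTreg and 4.01 to 5.80 FPKM in Nrp-1- iTreg, nearly all from Cd79b, with Ms4a1 and Pax5 listed at 0 in every library. Summed over 7 myeloid and dendritic markers it was 6.67 to 7.36 FPKM against 5.48 to 6.30 FPKM, nearly all from Itgam, and Csf1r and Cd14 stayed under 0.07 FPKM. Summed over 5 NK and CD8 markers it was 8.12 to 9.64 FPKM against 9.99 to 11.8 FPKM, nearly all from Cd8b1, and Cd8a stayed at or under 0.111 FPKM. Itgam was higher and Cd8b1 lower in Nrp-1+ iTreg, and the part of these and of the regulatory T cell markers in the results below was not tested.

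Differences were tested with limma on log2(FPKM + 1), so every fold change here, given ± its standard error, is on that scale and understates the change of low genes. The p-values were adjusted by the Benjamini-Hochberg method over the 10467 genes. A gene was called higher or lower in Nrp-1+ iTreg at an adjusted p under 0.05, and a gene that was not called is not thereby shown to be equal in the groups. Of all tested genes 40.9% were called, 20.0% as lower and 20.9% as higher, against 47.7% lower and 11.4% higher among the members. The median log2 fold change was -0.12 over the 44 members and -0.015 over all tested genes, and 34 members had a lower mean in Nrp-1+ iTreg. The values of the groups did not overlap for 19 members with lower values in Nrp-1+ iTreg, of which 18 were called (the other was Ubtf), and for 4 with higher values, all called, where 19.3% and 20.2% of all tested genes did the same. For each of these members the exact two-sided permutation test of the difference in mean FPKM gave p = 0.0286, the smallest that 4 against 4 libraries allow. Groups that do not overlap give this p by construction, so it adds nothing to the non-overlap. The changes were small: single members ranged from -0.29 for Polr1b to 0.18 for Nhp2, and the median size among called members was 0.16, against 0.22 among all called genes. In bulk samples fewer cells of a type and less RNA per cell cannot be told apart, and FPKM is a share of each library, so the amount of RNA per cell was not measured.

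**Figure D1:**
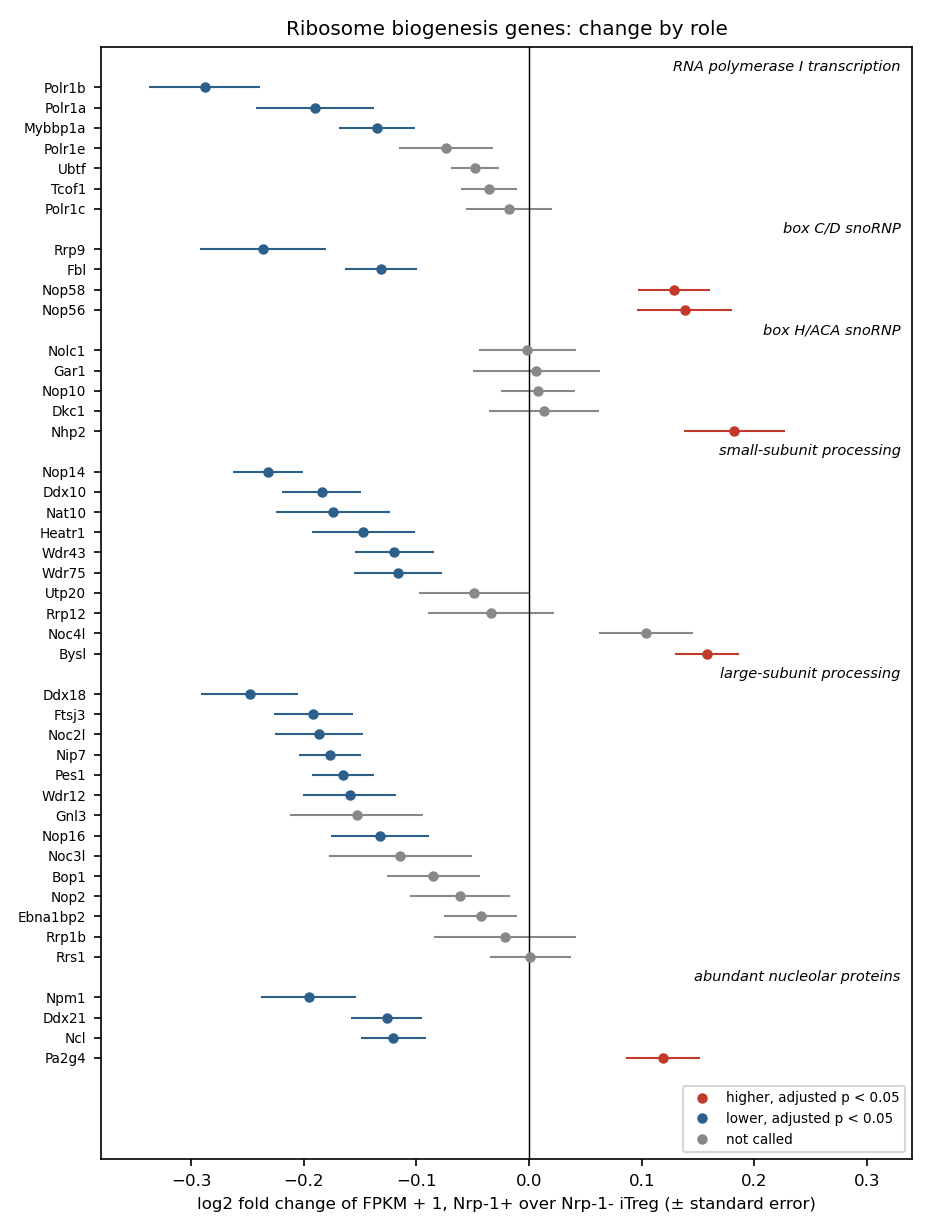
Log2 fold change of FPKM + 1 in Nrp-1+ over Nrp-1- iTreg (x axis, with standard error, 4 libraries per group) for each of the 44 genes, grouped by role. The 21 blue genes (lower) reach -0.29 at Polr1b, the 5 red genes (higher) reach 0.18 at Nhp2, and 18 grey genes did not pass the test.

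Promoter sequence is shown for the 3 members with the largest falls and the 3 with the largest rises among called members whose RefSeq promoter window had 120 bases free of the gene's annotated exons, because these genes lie at the ends of the range. Windows of 250 bases before to 50 after the start were matched for 38 of the 44 members. Capitals mark matches to the motifs searched on both strands, which were the E-box CACGTG, the ETS motif CCGGAAG, the YY1 motif GCCATNTT, the GC box GGGCGG and the NRF1 core TGCGCA. None of these motifs contains another, and matches of different motifs could share bases. Each sequence runs 5′ to 3′ on the gene's strand. The Rrp9 stretch lies before the RefSeq start but inside the GENCODE gene, in an intron of a longer non-coding transcript that starts further upstream.
Polr1b, GRCm38.p6 chr2:129100875-129100994, plus strand: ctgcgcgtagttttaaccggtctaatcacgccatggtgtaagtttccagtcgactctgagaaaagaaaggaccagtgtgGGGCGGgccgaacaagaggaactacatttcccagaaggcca
Ddx18, GRCm38.p6 chr1:121567990-121568109, minus strand: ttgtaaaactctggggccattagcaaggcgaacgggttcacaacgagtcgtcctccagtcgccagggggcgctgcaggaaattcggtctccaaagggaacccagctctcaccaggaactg
Rrp9, GRCm38.p6 chr9:106477149-106477268, plus strand: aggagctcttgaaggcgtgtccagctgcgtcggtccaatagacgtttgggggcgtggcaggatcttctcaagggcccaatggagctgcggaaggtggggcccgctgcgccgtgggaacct
Nhp2, GRCm38.p6 chr11:51619615-51619734, plus strand: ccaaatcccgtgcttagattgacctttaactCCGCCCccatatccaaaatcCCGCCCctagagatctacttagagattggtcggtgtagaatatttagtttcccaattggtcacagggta
Bysl, GRCm38.p6 chr17:47611493-47611612, minus strand: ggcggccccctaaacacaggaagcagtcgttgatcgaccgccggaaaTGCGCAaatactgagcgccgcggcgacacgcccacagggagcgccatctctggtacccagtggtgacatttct
Nop56, GRCm38.p6 chr2:130274292-130274411, plus strand: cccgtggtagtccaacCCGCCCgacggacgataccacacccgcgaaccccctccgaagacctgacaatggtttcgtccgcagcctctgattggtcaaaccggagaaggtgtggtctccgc
The Polr1b stretch held 1 GC box and the Ddx18 and Rrp9 stretches held no match, whereas the Nhp2 stretch held 2 GC boxes, the Bysl stretch 1 NRF1 core and the Nop56 stretch 1 GC box. Over whole windows the GC box was found in 74.5% of the 47 member windows, 64.3% of the windows of tested genes and 35.7% of all windows. All 5 members that rose, 14 of the 19 matched members that fell and 11 of the 14 not called had a GC box in some window. These are counts of genes over any of their windows and do not compare with the shares of windows. The E-box, the core sequence bound by MYC and MAX, was found in 10.6% of member windows, 10.6% of those of tested genes and 7.15% of all. It was present in 0 of the 5 members that rose, 3 of the 19 that fell and 2 of the 14 not called. The ETS motif was found in 27.7% of member windows against 19.8% and 8.86%, the NRF1 core in 17.0% against 14.9% and 7.76%, and the YY1 motif in 4.26% against 9.32% and 6.05%. A match describes these letters only and is not evidence of binding.

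RNA polymerase I transcription was represented by 7 genes, of which 3 were lower, 0 higher and 4 not called, with a median log2 fold change of -0.074. Both catalytic subunits fell. Polr1b, the second-largest subunit, measured 2.52, 2.49, 2.47 and 2.82 FPKM in Nrp-1+ iTreg and 3.45, 3.24, 3.49 and 3.28 FPKM in Nrp-1- iTreg, in the order of replicates 1 to 4, which is kept throughout. Every Nrp-1+ library lay below every Nrp-1- library (log2 fold change -0.29 ± 0.049, adjusted p = 0.00218), and the mean was 23.4% lower. Polr1a, the largest subunit, measured 7.38, 7.17, 7.37 and 7.82 FPKM in Nrp-1+ iTreg and 9.38, 8.09, 8.06 and 8.996 FPKM in Nrp-1- iTreg. These groups were also apart (log2 fold change -0.19 ± 0.052, adjusted p = 0.0205), but Polr1a was no longer called without Nrp-1+ iTreg replicate 2 or 3 or Nrp-1- iTreg replicate 4 (adjusted p 0.0504 to 0.0561). Mybbp1a, a nucleolar Myb-binding protein linked to rDNA transcription and rRNA processing, was 9.27% lower (log2 fold change -0.13 ± 0.034, adjusted p = 0.0132).

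The other polymerase genes gave smaller differences. Polr1c, the assembly subunit shared with RNA polymerase III, measured 34.95, 39.0, 38.1 and 39.2 FPKM in Nrp-1+ iTreg and 38.1, 37.1, 38.5 and 39.3 FPKM in Nrp-1- iTreg (log2 fold change -0.018 ± 0.038, adjusted p = 0.735). Polr1e, part of a subunit pair that aids initiation, measured 8.48, 9.03, 9.15 and 8.93 FPKM and 9.28, 9.99, 8.80 and 9.60 FPKM (log2 fold change -0.074 ± 0.042, adjusted p = 0.193). In both genes the groups overlapped. Ubtf, which encodes the rDNA-binding factor UBF and was the most abundant of the 7 transcripts, measured 53.0, 50.7, 53.5 and 52.7 FPKM and 54.4, 54.2, 54.3 and 54.1 FPKM. Its groups did not overlap, yet the difference was 3.30% and did not pass (log2 fold change -0.048 ± 0.021, adjusted p = 0.108). Tcof1, encoding the UBF partner treacle, measured 37.8, 37.0, 36.1 and 37.3 FPKM and 38.3, 36.7, 38.9 and 38.2 FPKM, with overlapping groups (log2 fold change -0.036 ± 0.025, adjusted p = 0.281).

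Because FPKM is per length, levels can roughly be set side by side between subunits. Of the 4 subunits among the members, the catalytic ones had the lowest means. Polr1b averaged 3.36 FPKM in Nrp-1- iTreg and ranked 43 of 44 by mean level, Polr1a averaged 8.63 FPKM, Polr1e 9.42 FPKM and Polr1c 38.3 FPKM. The values of Polr1a and Polr1e overlapped in Nrp-1- iTreg. Of subunit genes outside the members, Polr1g averaged 4.76 FPKM there, below Polr1a, and Polr1d, Polr1f and Polr1h averaged 240, 17.1 and 54.3 FPKM. The FPKM ratio of Polr1b to Polr1c was 0.0681 in Nrp-1+ iTreg and 0.0879 in Nrp-1- iTreg (difference of mean log2 ratio -0.37). Such ratios, in which any scaling of a library cancels, were compared for all 18 pairs within 4 complexes with exact two-sided permutation tests. Of the 18 pairs 0 passed after adjustment over the 18 (limit 0.05), and 6 reached the smallest p possible, 0.0286, which gave an adjusted p of 0.0857. With 4 libraries a group, 11 of the 18 pairs would have to reach that smallest p before any adjusted p fell under the limit, so a pair that did not pass is not shown to keep its ratio. Those 6 were Polr1b with each of Polr1a, Polr1c and Polr1e, Fbl with each of Nop56 and Nop58, and Nop10 with Nhp2.

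The 4 box C/D snoRNP genes split evenly, with 2 higher and 2 lower. Fbl, the methyltransferase fibrillarin, measured 78.4, 79.6, 79.7 and 77.0 FPKM in Nrp-1+ iTreg and 85.8, 81.4, 88.6 and 89.4 FPKM in Nrp-1- iTreg. Each Nrp-1+ library was below each Nrp-1- library and the mean was 8.86% lower (log2 fold change -0.13 ± 0.032, adjusted p = 0.0114). RefSeq lists 1 pseudogene named after Fbl, and how reads matching both were shared out is not given in the sources used here. Nop58, a core scaffold protein of the same particle, measured 48.3, 49.5, 47.4 and 45.1 FPKM and 44.1, 42.0, 44.1 and 43.5 FPKM. Here each Nrp-1+ library was above each Nrp-1- library, by 9.58% in the mean (log2 fold change 0.13 ± 0.032, adjusted p = 0.0128), while under quantile normalization the value was 0.11 and not called (adjusted p = 0.0613). Its paralogous partner Nop56 measured 48.0, 47.4, 43.99 and 47.1 FPKM and 40.7, 41.5, 41.4 and 45.6 FPKM. Nop56 was 10.3% higher in the mean (log2 fold change 0.14 ± 0.042, adjusted p = 0.0306), but Nrp-1- iTreg replicate 4 lay above Nrp-1+ iTreg replicate 3, so the groups overlapped. Nop56 was not called without Nrp-1+ iTreg replicate 1, 2 or 4 or Nrp-1- iTreg replicate 1, 2 or 3 (adjusted p 0.0683 to 0.0769). Rrp9, the protein specific to the U3 snoRNP that acts in small-subunit processing, measured 11.4, 13.1, 11.9 and 10.9 FPKM and 13.6, 15.1, 13.8 and 13.7 FPKM, 16.1% lower in Nrp-1+ iTreg and without overlap (log2 fold change -0.24 ± 0.056, adjusted p = 0.0105), and with GC content and length corrected for the value was -0.25 and not called (adjusted p = 0.0670).

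Ratios between the 3 core proteins were compared next. The FPKM ratio of Fbl to Nop56 was 1.69 in Nrp-1+ iTreg and 2.04 in Nrp-1- iTreg, a log2 difference of -0.27, and that of Fbl to Nop58 was 1.65 in Nrp-1+ iTreg and 1.99 in Nrp-1- iTreg, a log2 difference of -0.26. The exact two-sided permutation p was 0.0286 for each, the smallest possible, and the adjusted p 0.0857. The ratio of Nop56 to Nop58 was 0.980 in Nrp-1+ iTreg and 0.973 in Nrp-1- iTreg, a log2 difference of 0.0100 (exact permutation p = 0.8286).

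**Figure D2:**
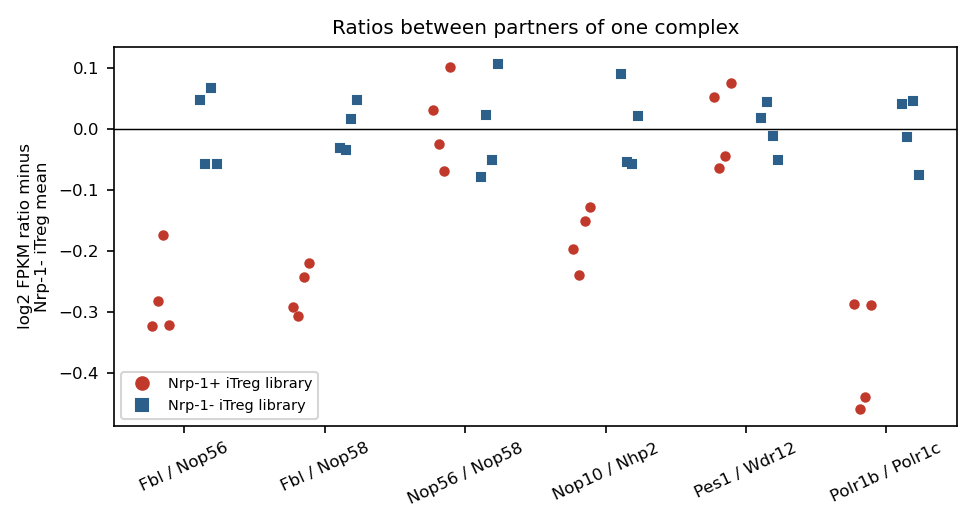
Log2 ratio of FPKM between partner genes of one complex in each library, minus the mean of the 4 Nrp-1- iTreg libraries (y axis), for 6 of the 18 pairs compared. The 4 Nrp-1+ iTreg points (circles) lie below all Nrp-1- iTreg points (squares) for Fbl to Nop56, Fbl to Nop58, Nop10 to Nhp2 and Polr1b to Polr1c, and are mixed with them for Nop56 to Nop58 and Pes1 to Wdr12. No pair passed adjustment over the 18, which 11 pairs at the smallest possible p would have been needed for.

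Box H/ACA snoRNPs carry dyskerin and 3 small core proteins, and they also stabilise telomerase RNA. Of the 5 genes here 1 was higher, 0 were lower and 4 were not called, with a median log2 fold change of 0.0077. Nhp2, the RNA-binding core protein, measured 52.1, 52.1, 53.5 and 49.6 FPKM in Nrp-1+ iTreg and 43.2, 49.0, 46.8 and 43.4 FPKM in Nrp-1- iTreg. All 4 Nrp-1+ libraries lay above the Nrp-1- libraries and the mean was 13.6% higher (log2 fold change 0.18 ± 0.045, adjusted p = 0.0123), the largest rise of the 44, although with GC content and length corrected for the value was 0.17 and not called (adjusted p = 0.0872).

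The rest of the H/ACA set overlapped between the groups. Dkc1, the pseudouridine synthase dyskerin, measured 18.6, 20.5, 17.1 and 18.2 FPKM and 18.2, 18.1, 18.8 and 18.6 FPKM (log2 fold change 0.013 ± 0.049, adjusted p = 0.856). Nop10, the smallest core protein and the most abundant transcript of the particle, measured 100.5, 97.6, 106 and 100.5 FPKM and 102, 104, 99.4 and 97.3 FPKM (log2 fold change 0.0078 ± 0.033, adjusted p = 0.872). No library set either group apart in these genes. Gar1, the core protein that joins the mature particle, measured 19.6, 16.1, 17.98 and 18.1 FPKM and 17.00, 17.97, 18.7 and 17.7 FPKM (log2 fold change 0.0064 ± 0.056, adjusted p = 0.941). Nolc1, the snoRNP chaperone Nopp140, measured 16.1, 14.6, 15.5 and 16.8 FPKM and 15.5, 15.1, 16.2 and 16.1 FPKM (log2 fold change -0.0015 ± 0.043, adjusted p = 0.983). In these genes too the ranges of the groups were mixed.

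**Figure D3:**
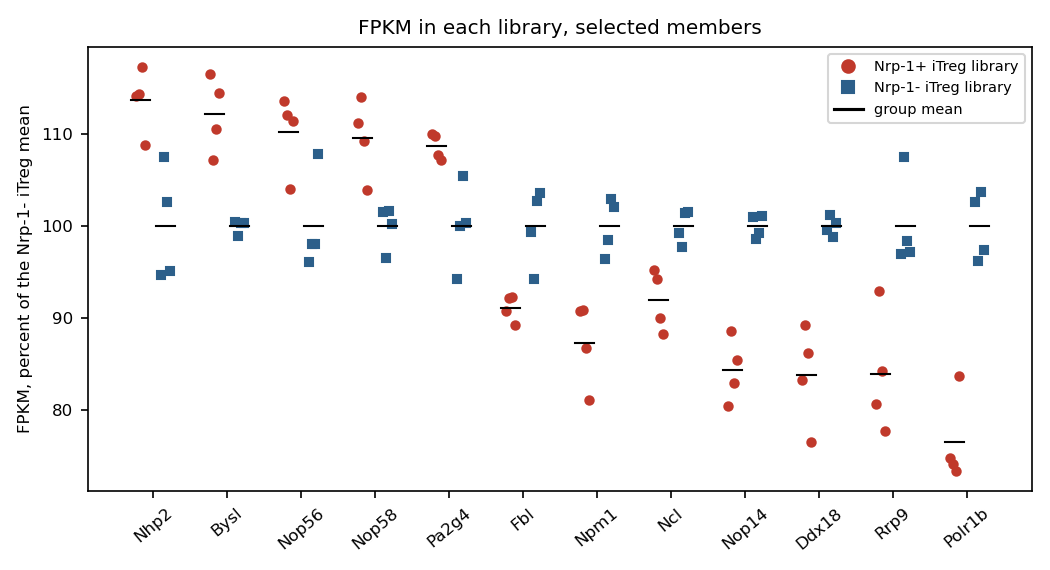
FPKM in each library as a percent of the Nrp-1- iTreg mean (y axis) for 12 members, with circles for Nrp-1+ iTreg, squares for Nrp-1- iTreg and lines for the group means. Nhp2, Bysl, Nop58 and Pa2g4 had every circle above every square, Nop56 had 1 square above 1 circle, and the 7 genes from Fbl to Polr1b had every circle below every square.

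The small-subunit processing factors, most of them parts of the processome that assembles on the precursor with U3, gave 6 lower, 1 higher and 3 not called out of 10, with a median log2 fold change of -0.12. Nop14, a processome scaffold, measured 15.1, 16.6, 15.6 and 16.1 FPKM in Nrp-1+ iTreg and 18.97, 18.5, 18.6 and 18.98 FPKM in Nrp-1- iTreg. The Nrp-1- libraries lay close together and well above all Nrp-1+ libraries (log2 fold change -0.23 ± 0.031, adjusted p = 0.000598), and the mean was 15.6% lower. The RNA helicase Ddx10 was 12.6% lower without overlap (log2 fold change -0.18 ± 0.035, adjusted p = 0.00385). Nat10, the RNA cytidine acetyltransferase, was 12.9% lower without overlap (log2 fold change -0.17 ± 0.051, adjusted p = 0.0254), and the call was lost without Nrp-1+ iTreg replicate 2 or 3 or Nrp-1- iTreg replicate 1, 3 or 4 (adjusted p 0.0537 to 0.0669).

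Among the proteins of the early transcription-linked UTP-A complex, Heatr1 was 10.9% lower (log2 fold change -0.15 ± 0.046, adjusted p = 0.0329), Wdr43 8.25% lower (log2 fold change -0.12 ± 0.035, adjusted p = 0.0265) and Wdr75 8.53% lower (log2 fold change -0.12 ± 0.039, adjusted p = 0.0431). Wdr43 had no overlap between the groups, while in Heatr1 and Wdr75 the highest Nrp-1+ library reached into the range of Nrp-1- iTreg. Heatr1 was not called without Nrp-1+ iTreg replicate 2, 3 or 4 or Nrp-1- iTreg replicate 1, 3 or 4 (adjusted p 0.0555 to 0.0828). Wdr43 was not called without Nrp-1+ iTreg replicate 1 or Nrp-1- iTreg replicate 2 or 3 (adjusted p 0.0524 to 0.0691). Wdr75 was not called without Nrp-1+ iTreg replicate 1, 2, 3 or 4 or Nrp-1- iTreg replicate 1, 3 or 4 (adjusted p 0.0525 to 0.104).

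Bysl was the 1 member of this role that rose. Bysl encodes bystin, a late-acting factor of small-subunit maturation, and measured 24.7, 22.7, 23.4 and 24.3 FPKM in Nrp-1+ iTreg and 21.3, 20.98, 21.3 and 21.3 FPKM in Nrp-1- iTreg. Every Nrp-1+ library exceeded every Nrp-1- library, with a mean 12.2% higher (log2 fold change 0.16 ± 0.028, adjusted p = 0.00287). On the other strand Bysl shares 361 exon bases, 9.37% of its own, with Ccnd3 (cyclin D3), which was itself higher (log2 fold change 0.22, adjusted p = 0.00187, 173 against 148 FPKM). The study's methods name a strand-specific library kit and the labels another kit. Strand use in the counting is not given in the sources used here, and whether reads of the shared bases were kept apart was not tested.

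Of the 3 small-subunit factors that were not called, Noc4l, the partner of Nop14, measured 19.4, 17.4, 17.8 and 19.3 FPKM in Nrp-1+ iTreg and 17.1, 17.9, 16.4 and 16.99 FPKM in Nrp-1- iTreg (log2 fold change 0.10 ± 0.042, adjusted p = 0.0793). It was called higher without Nrp-1+ iTreg replicate 2 (adjusted p 0.0444). Its Nrp-1+ replicates 1 and 4 were above all Nrp-1- libraries and replicates 2 and 3 were within their range. Utp20, a large scaffold protein and the lowest of the 44 transcripts, measured 2.67, 2.48, 2.55 and 2.52 FPKM and 2.79, 2.70, 2.46 and 2.77 FPKM (log2 fold change -0.049 ± 0.049, adjusted p = 0.461). Rrp12, an export factor of subunit precursors, measured 3.30, 3.19, 2.95 and 3.63 FPKM and 3.31, 3.22, 3.46 and 3.46 FPKM (log2 fold change -0.034 ± 0.056, adjusted p = 0.661). Both overlapped between the groups.

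The 14 large-subunit processing factors gave 7 lower, 0 higher and 7 not called, with a median log2 fold change of -0.14. Their summed level was 209 to 218 FPKM in Nrp-1+ iTreg and 235 to 237 FPKM in Nrp-1- iTreg, 9.85% lower in the mean. Ddx18, an RNA helicase and both the most abundant and the most changed of the 14, measured 27.8, 29.8, 28.7 and 25.5 FPKM in Nrp-1+ iTreg and 33.2, 33.7, 33.0 and 33.5 FPKM in Nrp-1- iTreg. The groups were apart and the mean was 16.1% lower (log2 fold change -0.25 ± 0.043, adjusted p = 0.00237).

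The PeBoW complex, which joins Pes1, Bop1 and Wdr12 in processing of the large-subunit rRNA, was lower in 2 of its 3 genes. Pes1 was 11.2% lower (log2 fold change -0.16 ± 0.028, adjusted p = 0.00197) and Wdr12 11.4% lower (log2 fold change -0.16 ± 0.041, adjusted p = 0.0157), each without overlap. Bop1 measured 20.7, 21.4, 22.0 and 23.0 FPKM in Nrp-1+ iTreg and 24.3, 23.4, 23.1 and 21.8 FPKM in Nrp-1- iTreg, with overlapping groups (log2 fold change -0.085 ± 0.041, adjusted p = 0.136). The FPKM ratio of Pes1 to Wdr12 was 2.95 in Nrp-1+ iTreg and 2.94 in Nrp-1- iTreg, a log2 difference of 0.0053 (exact permutation p = 0.886).

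Of the other large-subunit factors, Ftsj3, an rRNA ribose methyltransferase, was 13.0% lower (log2 fold change -0.19 ± 0.035, adjusted p = 0.00302). Nip7, which acts on precursors of the large subunit, was 12.4% lower (log2 fold change -0.18 ± 0.027, adjusted p = 0.00134), and Noc2l, a member of the nucleolar complex that escorts those precursors, 12.6% lower (log2 fold change -0.19 ± 0.039, adjusted p = 0.00596). None of these genes overlapped between the groups. Noc2l shares 598 exon bases, 20.9% of its own, with Samd11 on the other strand, which was not called (log2 fold change -0.060, adjusted p = 0.513). Nop16 was 9.31% lower (log2 fold change -0.13 ± 0.043, adjusted p = 0.0401) with 1 Nrp-1+ library inside the Nrp-1- range, and it was not called without Nrp-1+ iTreg replicate 1, 2 or 4 or Nrp-1- iTreg replicate 1, 2, 3 or 4 (adjusted p 0.0538 to 0.0981).

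The 6 further genes of this role that were not called overlapped between the groups. Gnl3, the GTPase nucleostemin, measured 10.3, 10.2, 9.24 and 8.95 FPKM in Nrp-1+ iTreg and 11.5, 10.1, 10.4 and 11.5 FPKM in Nrp-1- iTreg (log2 fold change -0.15 ± 0.059, adjusted p = 0.0713). Noc3l, the partner of Noc2l, measured 4.56, 4.89, 4.65 and 4.61 FPKM and 5.26, 5.46, 5.53 and 4.40 FPKM (log2 fold change -0.11 ± 0.064, adjusted p = 0.188). In Noc3l 3 Nrp-1- libraries exceeded all Nrp-1+ libraries and Nrp-1- replicate 4 was the lowest of the 8, and without that library Noc3l was called lower (adjusted p 0.0117). Nop2, an rRNA cytosine methyltransferase, measured 14.2, 14.0, 15.3 and 13.8 FPKM and 14.0, 15.3, 15.7 and 15.05 FPKM (log2 fold change -0.061 ± 0.044, adjusted p = 0.302). Ebna1bp2, the homologue of yeast EBP2, measured 15.5, 15.4, 15.2 and 15.97 FPKM and 15.3, 15.7, 16.7 and 16.4 FPKM (log2 fold change -0.043 ± 0.032, adjusted p = 0.322). In Nop2 and Ebna1bp2 the highest of the 8 values was in Nrp-1- iTreg. Rrp1b measured 5.97, 5.79, 5.48 and 5.68 FPKM and 5.86, 6.60, 5.14 and 5.80 FPKM (log2 fold change -0.022 ± 0.063, adjusted p = 0.810). Rrs1, which helps bring the small ribosomal RNA particle into the large subunit, measured 11.5, 12.2, 11.5 and 11.8 FPKM and 12.4, 11.2, 11.8 and 11.7 FPKM (log2 fold change 0.0013 ± 0.036, adjusted p = 0.983), the fold change closest to 0 on the log2(FPKM + 1) scale, while in percent of the mean FPKM Nolc1 differed least.

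The 4 abundant nucleolar proteins gave 3 lower and 1 higher, with a median log2 fold change of -0.12. Npm1, the histone chaperone and ribosome export factor nucleophosmin, was the highest transcript of the 44 and measured 872, 873, 833 and 779 FPKM in Nrp-1+ iTreg and 927, 946, 989 and 981 FPKM in Nrp-1- iTreg. All Nrp-1+ libraries were below all Nrp-1- libraries, with a mean 12.6% lower (log2 fold change -0.20 ± 0.042, adjusted p = 0.00695). Under quantile normalization the Npm1 value was -0.10 (adjusted p = 0.732) and no longer called. Ncl, the RNA-binding protein nucleolin, was 8.04% lower (log2 fold change -0.12 ± 0.029, adjusted p = 0.0111) and Ddx21, a helicase of rDNA transcription and rRNA processing, 8.65% lower (log2 fold change -0.13 ± 0.032, adjusted p = 0.0136), both without overlap. Ncl was not called under quantile normalization (log2 fold change -0.135, adjusted p = 0.0961) or with the replicate number as a block.

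Pa2g4 was the exception in this role. Pa2g4 encodes the ErbB3-binding protein EBP1, a growth-regulated protein of nucleolus and ribosome, and measured 69.7, 69.5, 68.3 and 67.9 FPKM in Nrp-1+ iTreg and 59.7, 63.4, 66.8 and 63.6 FPKM in Nrp-1- iTreg. The Nrp-1+ libraries were all above the Nrp-1- libraries and closer together (log2 fold change 0.12 ± 0.033, adjusted p = 0.0204). Without Nrp-1+ iTreg replicate 1 or 2 Pa2g4 was not called (adjusted p 0.0507 to 0.0517). Its call was also lost under quantile normalization (log2 fold change 0.121, adjusted p = 0.0527) and with the replicate number as a block.

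Summed over the 44 genes, the level was 1889 to 2002 FPKM in Nrp-1+ iTreg and 2081 to 2159 FPKM in Nrp-1- iTreg, with means of 1962 ± 53.4 (SD, n = 4) and 2123 ± 37.4 (SD, n = 4), 7.62% lower. Npm1 alone made up a large share of that sum, and without it the sums were 1110.3 to 1130.2 FPKM and 1155 to 1169.8 FPKM, 3.47% lower in the mean. Neither pair of ranges overlapped. A list of 25 proliferation genes moved in the opposite direction with the same groups: all 25 were higher in Nrp-1+ iTreg, with a median log2 fold change of 0.90. Mki67, a marker of cycling cells, averaged 82.3 ± 4.59 in Nrp-1+ iTreg and 46.3 ± 1.40 in Nrp-1- iTreg (mean FPKM ± SD), and Top2a, the topoisomerase of dividing cells, averaged 346 ± 9.71 in Nrp-1+ iTreg and 173 ± 3.08 in Nrp-1- iTreg. The part of proliferation in the members' differences was not tested.

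**Figure D4:**
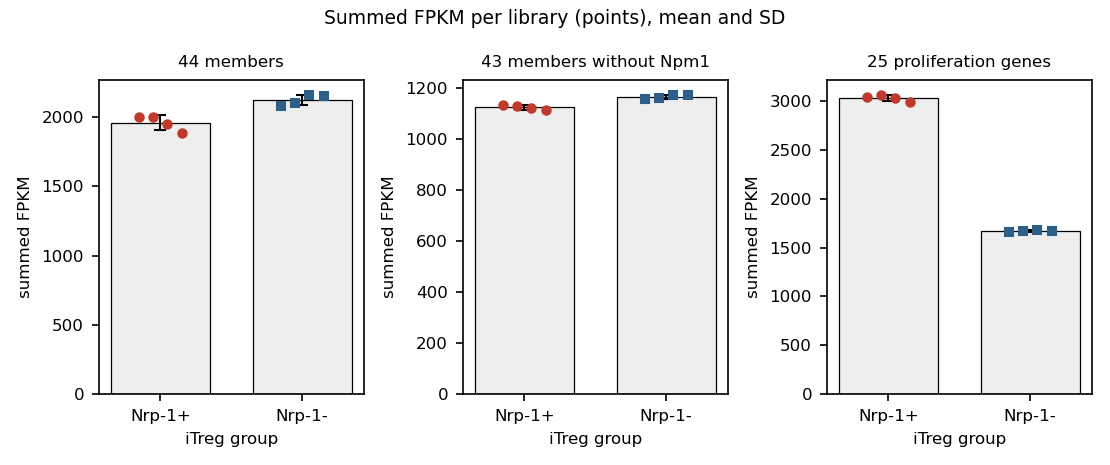
Summed FPKM per library (points), group mean (bar) and SD (error bar) for the 44 members, the members without Npm1 and 25 proliferation genes, each on its own y axis from 0. Nrp-1+ iTreg lay at 1889 to 2002 against 2081 to 2159 for the members, and at 2989 to 3059 against 1659.6 to 1679.8 for proliferation genes.

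The rest of the pathway was read from 105 further genes. Of these 41 were lower, 7 higher and 57 not called, with a median log2 fold change of -0.10, beside 21, 5 and 18 of the 44 members and their median of -0.12. Among 10 further RNA polymerase I genes 7 were lower and 0 higher, among 36 further small-subunit factors 13 were lower and 1 higher, and among 41 further large-subunit factors 20 were lower and 1 higher. The 18 genes of snoRNP assembly and the RNA exosome gave 1 lower and 5 higher (5.56% and 27.8%, where all tested genes gave 20.0% and 20.9%), with a median of 0.041. The largest falls were in Nle1, an assembly factor of the large subunit (log2 fold change -0.40 ± 0.066, adjusted p = 0.00187), Nob1, the endonuclease that finishes the small-subunit rRNA (log2 fold change -0.31 ± 0.049, adjusted p = 0.00148), and Rrp15 (log2 fold change -0.30 ± 0.086, adjusted p = 0.0224). The largest rises were in Pih1d1, part of the R2TP chaperone that assembles box C/D snoRNPs (log2 fold change 0.35 ± 0.043, adjusted p = 0.000360), and in the exosome genes Exosc8 (log2 fold change 0.26 ± 0.042, adjusted p = 0.00168) and Dis3 (log2 fold change 0.22 ± 0.049, adjusted p = 0.00732).

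Ribosomal protein genes were set beside the members as the products that these factors assemble. Of 76 cytosolic ribosomal protein genes 57 were lower and 0 higher, with a median log2 fold change of -0.18. Of 76 mitochondrial ribosomal protein genes 13 were lower and 7 higher, with a median of -0.016, where the median of all tested genes was -0.015. These counts and medians are descriptions, and no difference between the lists was tested.

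**Figure D5:**
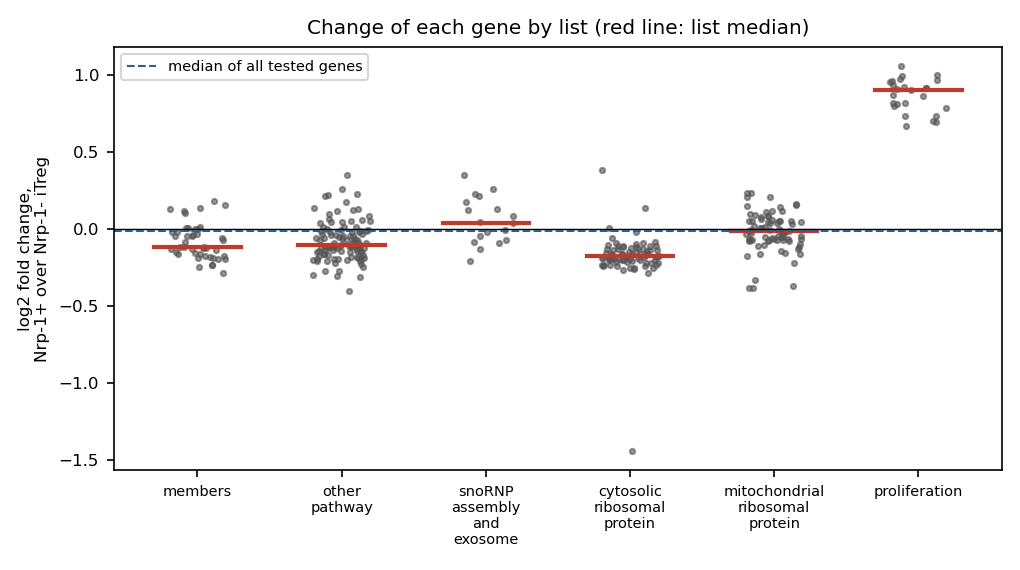
Log2 fold change in Nrp-1+ over Nrp-1- iTreg (y axis) of each gene (points) in 6 lists, with list medians as red lines and the median of all tested genes as a dashed line. The lone point at -1.44 is Rps27, named after its value was seen. The 18 genes of snoRNP assembly and exosome are also among the 105 other pathway genes. Medians were -0.12 for the members, -0.10 for other pathway genes, -0.18 for cytosolic and -0.016 for mitochondrial ribosomal proteins, and 0.90 for proliferation genes.

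Regulators of the pathway gave 2 higher, 4 lower and 7 not called out of 13 (15.4% higher and 30.8% lower, where all tested genes gave 20.9% and 20.0%). Rpl5 and Rpl11, counted here as lower, are also among the cytosolic ribosomal protein genes above. Myc, the transcription factor that drives many of these genes, averaged 57.4 ± 0.514 in Nrp-1+ iTreg and 56.5 ± 2.27 in Nrp-1- iTreg (log2 fold change 0.024 ± 0.029, adjusted p = 0.537). Its dimer partner Max averaged 76.7 ± 2.26 in Nrp-1+ iTreg and 83.5 ± 0.668 in Nrp-1- iTreg and was lower (log2 fold change -0.12 ± 0.024, adjusted p = 0.00446). Of the mTOR branch, the kinase gene Mtor (log2 fold change -0.0066 ± 0.054, adjusted p = 0.936), its partner Rptor (log2 fold change 0.067 ± 0.035, adjusted p = 0.162) and the S6 kinase gene Rps6kb1 (log2 fold change 0.083 ± 0.047, adjusted p = 0.189) were not called. The inhibitor gene Tsc1 was lower (log2 fold change -0.14 ± 0.030, adjusted p = 0.00664) and Tsc2 was not called (log2 fold change -0.050 ± 0.030, adjusted p = 0.219).

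The nucleolar stress branch links free ribosomal proteins to p53 through Mdm2. Rpl5 and Rpl11, which encode those proteins, were both lower (log2 fold change -0.22 ± 0.037, adjusted p = 0.00225, and log2 fold change -0.22 ± 0.043, adjusted p = 0.00456). Both belong to the 76 cytosolic ribosomal protein genes, of which 57 were lower, with a median log2 fold change of -0.18. Whether this branch was active was not tested. Mdm2 (log2 fold change -0.0013 ± 0.028, adjusted p = 0.977) and Trp53 (log2 fold change 0.080 ± 0.029, adjusted p = 0.0589) were not called. Cdkn1a, a cell cycle inhibitor and p53 target, averaged 61.9 ± 1.91 in Nrp-1+ iTreg and 34.7 ± 2.46 in Nrp-1- iTreg and was higher (log2 fold change 0.82 ± 0.051, adjusted p = 6.82e-06). Rb1, which also restrains RNA polymerase I, averaged 29.9 ± 1.38 in Nrp-1+ iTreg and 23.0 ± 0.595 in Nrp-1- iTreg and was higher (log2 fold change 0.37 ± 0.036, adjusted p = 0.000102).

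Several members host snoRNAs in their introns, among them Nop56, Nop58, Dkc1, Wdr43, Gnl3 and Ncl. The snoRNAs annotated inside these genes that the table holds were listed at 0 in all 8 libraries, except Snord69 in Gnl3, which was listed at 0 in 7. An exact 0 for so short an RNA can be a failed estimate, so no comparison was made. Besides Bysl and Noc2l, 14 members share exon bases with a gene annotated on the other strand, 4 of them (Polr1a, Wdr43, Nop14 and Pes1) with a gene whose level was not analysed here. For the higher members Nhp2 and Nop56 the shared stretch was 44 bases with Rmnd5b, which was not called, and 5 bases with Idh3b, which was lower. Heatr1, which was lower, shares 155 exon bases, 1.98% of its own, with Lgals8, which was lower too (log2 fold change -0.17, adjusted p = 0.00105).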

How the data were processed

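RNA from 4 Nrp-1+ iTreg and 4 Nrp-1- iTreg samples was sequenced. Per the study's methods, the authors processed reads on the CLC Genomics Workbench and calculated FPKM with Cufflinks, and the deposited table holds FPKM by gene symbol and library (the submitters' processing notes name GRCm38 and mm10). Alignment settings, the annotation and strand use in counting are not given in the sources used here. FPKM is relative to length and library total, which inflates the shortest genes, and count models were not applied to it. Genes under 0.3 FPKM in both the first library and another were compared by the ratio of their FPKM values. For 64.0% to 67.6% of them this ratio matched a ratio of small whole numbers (within 0.3%). Genes with more fragments often cannot match, so the share does not show how far reads could be recovered, and reads were not recovered.

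The 10467 genes whose FPKM averaged 1 or more were tested on log2(FPKM + 1) by limma 3.58.1 in R 4.3.3, using lmFit and a trended eBayes, with Benjamini-Hochberg adjustment over all of them. Standard errors are limma's. Single members and FPKM ratios were compared with exact two-sided permutation tests (Python 3.11.15, scipy 1.17.1), and the plots were made with matplotlib 3.10.9. The fit was tested on simulated data with few changed genes, where most changes about as small as those of the members were missed. How often such changes were missed in these data was not tested. All 44 members are named. Library values are given in each role for the highest, the most and the least changed member and for members that rose or were not called. Of other pathway genes, the 3 largest rises and 3 largest falls are named. The members, the other lists and this rule were chosen with earlier results of these data known, and nothing here is independent of those. Coordinates and promoters come from RefSeq on GRCm38.p6 (the rule for the promoter stretches shown was settled after their values were seen), and exon overlaps from GENCODE M21. The 18 pairs are all pairs within RNA polymerase I, PeBoW and both snoRNP cores.

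Settings varied one at a time: pseudocount (0.1, 0.5), filter (none, mean FPKM of 5), quantile normalization, scaling by size factors (median of ratios), no trend, array weights, no short RNA genes, a GC content and length correction (natural splines, 5 degrees of freedom), the replicate number as a block, alone and together with that correction (the only setting that changed 2 choices at once), and each library left out. nTreg libraries were not analysed here.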

Additional observations from a re-analysis of the deposited data

Results flagged for a closer look

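In 6 of 90 sets of 4 libraries (the 44 members and Nrp1 in each group), 1 library stood apart from the other 3 by Dixon's criterion, where chance gives about 4.5. Polr1b in Nrp-1+ iTreg replicate 4 was at 2.82 FPKM, above the other 3 at 2.47 to 2.52 FPKM, and Wdr75 in Nrp-1+ iTreg replicate 1 was at 10.6 FPKM, above 10.1 to 10.2 FPKM. Nop56 in Nrp-1- iTreg replicate 4 was at 45.6 FPKM, above 40.7 to 41.5 FPKM. Rrp9 in Nrp-1- iTreg replicate 2 was at 15.1 FPKM, above 13.6 to 13.8 FPKM. Bysl in Nrp-1- iTreg replicate 2 was at 20.98 FPKM, just below the others at 21.26 to 21.29 FPKM. Wdr12 in Nrp-1- iTreg replicate 1 was at 10.0 FPKM, below 10.35 to 10.40 FPKM.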

How the results depend on the processing

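Over 20 alternatives the median log2 fold change of the members stayed between -0.13 and -0.10, and no called member changed sign. Of the 21 lower members 9 kept their call under every alternative (Nop14, Ddx10, Pes1, Wdr12, Ftsj3, Nip7, Noc2l, Ddx18 and Ddx21), and of the 5 higher members 0 did. The number of higher members, 5 as reported, was 3 with the GC content and length correction and 2 under quantile normalization, and it ranged from 3 to 5 with 1 library left out (3 without Nrp-1+ iTreg replicate 1). The number of lower members, 21 as reported, ranged from 16 to 19 with 1 library left out. The GC content and length correction ended the calls of Nop56, Rrp9, Nhp2, Nat10 and Nop16, and quantile normalization those of Nop56, Nop58, Ncl, Npm1 and Pa2g4. Under the correction the fold changes of Rrp9, Nat10 and Nop16 were larger in size (-0.25, -0.181 and -0.155) and those of Nop56 and Nhp2 smaller (0.127 and 0.166). Under quantile normalization those of Ncl and Pa2g4 were slightly larger (-0.135 and 0.121) and those of Nop56, Nop58 and Npm1 smaller (0.115, 0.106 and -0.102). Gnl3 was called lower without short RNA genes (adjusted p = 0.0470). Higher other pathway genes numbered 4 with the GC content and length correction, against 7. The cause was not tested.

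Libraries with the same replicate number did not deviate together (correlations -0.54, -0.020, 0.010 and -0.50 over all tested genes, and -0.20, 0.041, -0.040 and -0.20 without short RNA genes), and over all tested genes 0 of 8 libraries correlated best with their own number, so the numbers were not used to pair samples. Whether same-numbered samples came from one culture is not given in the sources used here. With the replicate block 4 members were higher and 16 lower, and the calls of Pa2g4, Heatr1, Wdr75, Nat10, Nop16 and Ncl ended. The replicate block together with the GC content and length correction left 0 higher members and 10 lower, 4 higher and 17 lower other pathway genes, and 1343 higher and 1055 lower genes of all tested, against 2189 and 2093. Within pairs no exact test can go below p = 0.125 and with 3 against 4 libraries below 0.0571, so the 0 of 18 ratio pairs under those settings says nothing about stability. The member with the fewest fragments, about 190 in 1 library, was Polr1b, which was called. What depth does to other calls was not tested.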
